A study of Mus musculus with 9 samples.

Results

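Progesterone synthesis and breakdown was followed through 10 genes in RNA sequencing of the mouse corona radiata, a layer of granulosa-derived cells around the oocyte. The genes were chosen by symbol for their roles and not by their values, though earlier results of these data were known. They were Star, Tspo, Cyp11a1, Fdx1, Fdxr, Hsd3b1, Hsd3b6, Akr1c18, Pgr and Pgrmc1. All 10 were found among the 54838 genes of the deposited matrix, and 9 of them entered the test. The samples came from adult mice after PMSG, which drives follicle growth, and hCG, which triggers ovulation. The labels add an unexplained term, "J4", to this treatment.

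The groups held 3 libraries each, 9 in all. Transgenic mice lacked both liver X receptors (DKO LXR) and carried TG-AMH-LXRb, LXR DKO mice lacked both receptors and had no transgene named, and wild-type (WT) mice had neither change. The labels give neither the promoter and coding sequence of the transgene nor the deleted parts of the receptor genes. Whether each library is a separate animal is not stated there. P-values thus reflect the spread among these 9 libraries, part of which may be technical.

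Progesterone is made when cholesterol enters mitochondria, loses its side chain to become pregnenolone, and is then oxidised by a 3beta-hydroxysteroid dehydrogenase. After the ovulatory surge granulosa-derived cells luteinise and make progesterone in quantity. In rodents progesterone is inactivated by 20alpha-hydroxysteroid dehydrogenase, an enzyme tied to the end of luteal function. Liver X receptors are nuclear receptors for oxysterols that regulate cholesterol handling.

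The Hsd3b1 and Hsd3b6 genes are close copies that lie near each other on chromosome 3, and both were lower in transgenic libraries than in WT. Their sequences are shown because a read from the shared part of one transcript cannot be told from a read of the other. The coding parts (GENCODE M21 transcripts, 1119 bases each) were identical at 1007 positions, or 90.0%. Coding bases 230 to 341 of both are given here, with the longest shared run, 72 bases, in capitals.
Hsd3b6: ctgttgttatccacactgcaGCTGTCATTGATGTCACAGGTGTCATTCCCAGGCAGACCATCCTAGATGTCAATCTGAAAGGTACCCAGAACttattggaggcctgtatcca
Hsd3b1: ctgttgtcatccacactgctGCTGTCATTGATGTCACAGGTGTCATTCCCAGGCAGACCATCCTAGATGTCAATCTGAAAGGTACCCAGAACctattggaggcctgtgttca
Of all stretches of 50 bases in Hsd3b6 transcripts, 2.11% also occurred in Hsd3b1, and 15.5% occurred in some other Hsd3b gene. For Akr1c18, 0.581% of such stretches occurred in another Akr1c gene.

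Upstream of the gene starts these copies share little. The table of RefSeq promoters used here (GRCm38.p6) matched 8 of the 10 genes, all but Star and Tspo. The 250 bases before the start of Hsd3b6 (chr3:98814444-98814693, minus strand) and Hsd3b1 (chr3:98859795-98860044, minus strand) had no shared run longer than 7 bases. Capitals mark the letters AGATAA on either strand, the core of GATA factor sites.
Hsd3b6: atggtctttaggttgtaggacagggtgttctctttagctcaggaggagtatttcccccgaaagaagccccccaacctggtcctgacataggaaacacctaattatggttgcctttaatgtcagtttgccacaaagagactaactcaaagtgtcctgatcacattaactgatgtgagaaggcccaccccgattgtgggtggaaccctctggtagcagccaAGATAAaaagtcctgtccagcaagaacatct
Hsd3b1: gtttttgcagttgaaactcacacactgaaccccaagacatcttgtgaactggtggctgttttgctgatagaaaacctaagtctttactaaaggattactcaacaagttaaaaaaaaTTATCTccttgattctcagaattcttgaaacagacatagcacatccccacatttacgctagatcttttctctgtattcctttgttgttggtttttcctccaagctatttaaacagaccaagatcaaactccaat
These were the only 2 of the 8 genes with AGATAA in this window, which 9.99% of 32851 mouse promoters of the same length hold. Other forms of GATA site were neither marked nor counted, and the same window of Fdx1 and of Fdxr holds the form TGATAA. The form AGATAG lies in a window of Cyp11a1, and Hsd3b1 also holds TGATAG. For Fdx1, Pgrmc1 and the Cyp11a1 window at chr9:57997774-57998023, the bases checked after the start were not found in GENCODE M21 transcripts of the gene. The NR5A motif AAGGTCA (4.08% of promoters), the cAMP response element TGACGTCA (1.55%) and the liver X receptor motif DR4 (0.0152%), which is AGGTCA repeated after a gap of 4 bases, each searched on both strands, were found in none of the 8 genes. Only these exact letters were searched, and other forms of these motifs were not counted. A window of Cyp11a1 (chr9:58014702-58014951, plus strand) holds AGGTCA, which is AAGGTCA without its first A. Neither a match nor its absence in this window says whether a factor binds.

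The deposited values are RPKM, in which reads are divided by gene length and library size. Reads in genes, worked back from them, numbered 31780900 to 46972430 per library. Nr1h2, which encodes LXR beta, measured 4.83 to 6.70 RPKM in transgenic, 2.85 to 3.57 in LXR DKO, against 39.7 to 45.7 in WT libraries, and Nr1h3, which encodes LXR alpha, measured 0.395 to 0.819 RPKM in transgenic, 0.713 to 1.08 in LXR DKO, against 3.50 to 5.72 in WT libraries. Of 12 granulosa and cumulus markers, 10 in every transgenic and LXR DKO library and 11 or 12 in WT libraries reached 1 RPKM. Their summed level was 450 to 564 RPKM in transgenic, 397 to 575 in LXR DKO, against 844 to 1019 in WT libraries. In the same order, Tnfaip6 measured 111 to 158, 89.7 to 114 and 324 to 450 RPKM. Inha measured 180 to 208, 150 to 271 and 274 to 307 RPKM. Not every marker was lower. Fshr measured 6.52 to 6.68, 4.93 to 9.36 and 4.68 to 7.43 RPKM, and Nr5a2 also overlapped between the mutant and WT libraries. The aromatase gene Cyp19a1 was at most 0.243 RPKM in transgenic and at most 0.649 in LXR DKO libraries, and 0.470 to 1.19 in WT. Oocyte markers (12 genes) summed to 14.8 to 55.8 RPKM in transgenic libraries, to 501 in LXR DKO 1, 12.8 in LXR DKO 2 and 2.08 in LXR DKO 3, and to 847 in WT 1, 1.79 in WT 2 and 2.22 in WT 3. Oviduct markers (11 genes) summed to 1733 to 2314 RPKM in transgenic, 487 to 992 in LXR DKO and 321, 280.1 and 1892 in WT 1 to 3. Red blood cell markers reached 9881 RPKM in WT 3, against at most 970.1 elsewhere. In such bulk samples fewer cells of a type and less RNA per cell cannot be told apart.

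Several of the 10 genes were among the most abundant transcripts of these cells. By mean RPKM over all libraries Akr1c18 ranked 3rd, Cyp11a1 7th and Hsd3b1 8th of the 16422 genes tested. Fdx1 ranked 123rd, Pgrmc1 189th, Tspo 194th, Fdxr 325th, Star 633rd and Hsd3b6 3705th, while Pgr was below 1 RPKM everywhere. This pooled order hides a difference between genotypes: Hsd3b1 averaged 1076 RPKM in transgenic and 1468 in LXR DKO libraries, below Cyp11a1 at 1514 and 1675, but 2201 RPKM in WT libraries, above Cyp11a1 at 1592. The order of genes also depends on the exon length used, which was 4804 bases for Cyp11a1, 1855 for Hsd3b1 and 1207 for Akr1c18. In reads, Cyp11a1 (299366 to 339095) was above Hsd3b1 (147054 to 188110) in all WT libraries. The genes that passed a test between genotypes were Star, Hsd3b1, Hsd3b6 and Akr1c18, and the side-chain cleavage genes passed no test, as the plot of values by library shows.

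**Figure D1:**
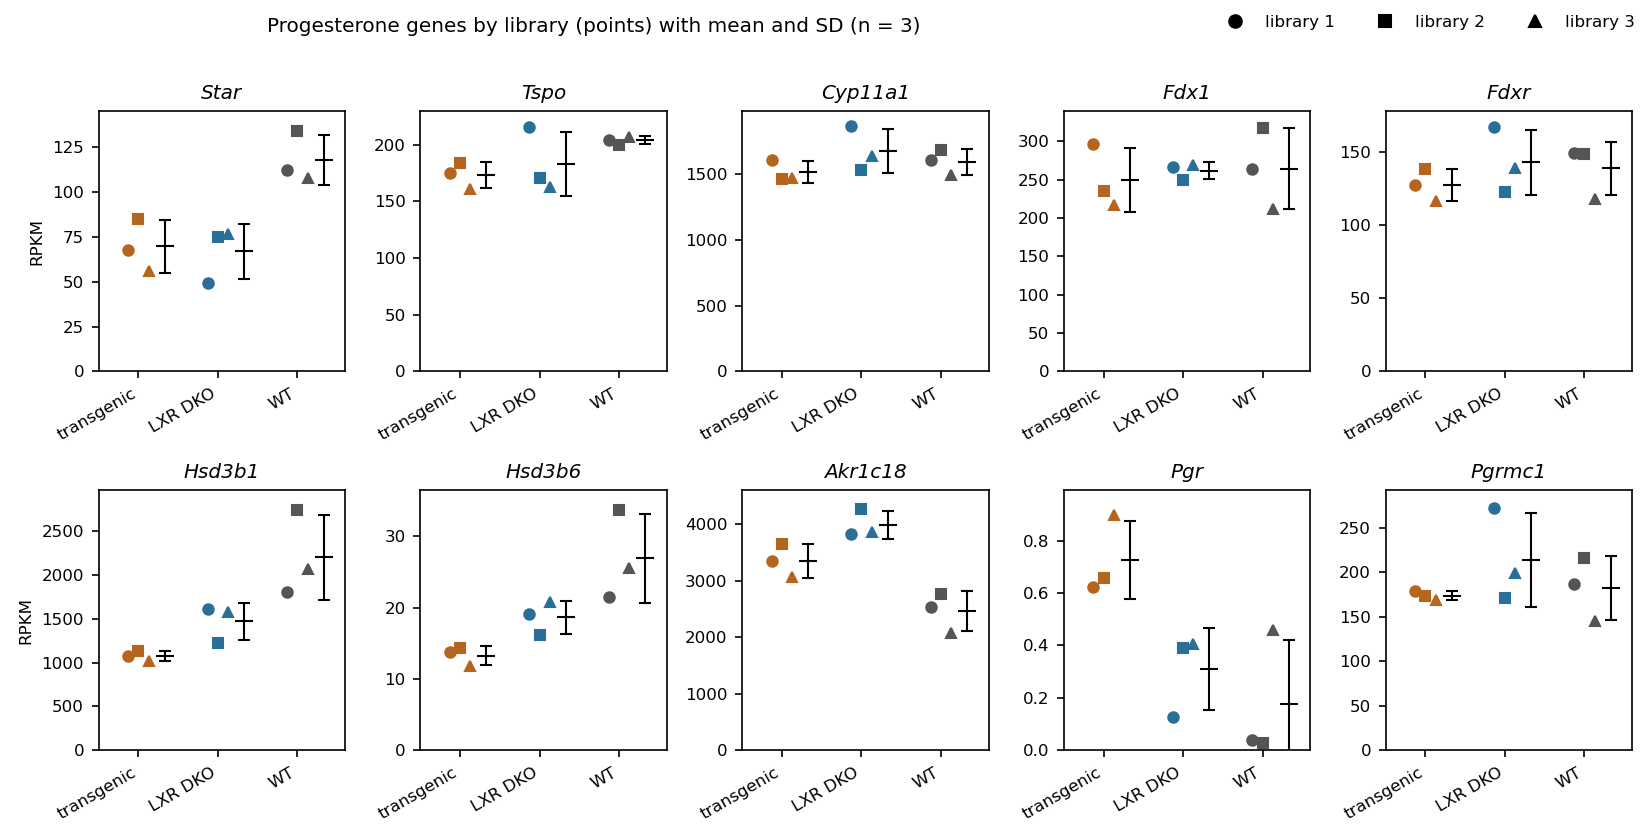
RPKM (vertical axis, from 0) of the 10 progesterone genes in transgenic, LXR DKO and WT libraries; points are libraries, coloured by genotype and shaped by library number, and bars give the mean and SD (n = 3). Star and Hsd3b1 lie lower in all transgenic and LXR DKO libraries than in all WT libraries, and Akr1c18 lies higher.

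Star encodes the carrier that moves cholesterol to the inner mitochondrial membrane, the acutely regulated step of steroid synthesis (ENSMUSG00000031574, mm10 chromosome 8, 25806555 to 25815982, plus strand). It measured 68.0, 85.0 and 56.0 RPKM in transgenic 1 to 3. LXR DKO 1 to 3 had 49.5, 74.7 and 76.8 RPKM, against 112, 134 and 108 RPKM in WT 1 to 3. Every transgenic and LXR DKO library lay below every WT library, and the transgenic and LXR DKO libraries overlapped. Star fell in LXR DKO relative to WT by 0.83 ± 0.20 (log2 of RPKM + 1, fold change and its SE, limma adjusted p = 0.0333). It also fell in transgenic relative to WT, with a log2 fold change of -0.77 ± 0.20 (limma adjusted p = 0.0411). These comparisons share the WT libraries. Between transgenic and LXR DKO the difference was 0.06 with a 95% interval of -0.39 to 0.51 (limma adjusted p = 0.967).

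The calls of Star did not hold in every setting. Omitting WT 1, WT 2, transgenic 1 or any 1 of LXR DKO 1, 2 and 3 ended that of LXR DKO minus WT (log2 fold change -0.94 to -0.63 over all omissions, limma adjusted p up to 0.0962). It was also lost without both WT 1 and LXR DKO 1, where oocyte markers were highest (-0.66, adjusted p = 0.0942), with no filter on low genes (adjusted p = 0.0883), with quantile normalization (0.0587) and in a fit of only the 2 genotypes (0.0538). That of transgenic minus WT was lost without WT 1, WT 2, LXR DKO 2, LXR DKO 3, transgenic 1 or transgenic 3 (-0.92 to -0.62, limma adjusted p up to 0.136), with no filter (0.0998) and with quantile normalization (0.0632). Theca cells also express Star. Of 8 theca markers 3 or 4 reached 1 RPKM in every library, and their summed level was 30.4 to 64.0 RPKM in transgenic, 13.8 to 66.9 in LXR DKO, against 11.9 to 69.6 in WT libraries. The defining markers Cyp17a1 and Insl3 were at most 0.119 and 0.115 RPKM in any library. The part of theca RNA in the values of Star was not tested.

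Tspo encodes an outer mitochondrial membrane protein that binds cholesterol (ENSMUSG00000041736, chromosome 15, 83563592 to 83574203, plus strand). It measured 175, 183 and 161 RPKM in transgenic, 216, 171 and 162 in LXR DKO and 204, 200.01 and 207 in WT libraries. All transgenic libraries lay below all WT libraries, while LXR DKO 1 lay above them. No comparison passed: the log2 fold change was -0.23 (95% interval -0.49 to 0.02) for transgenic minus WT and -0.17 (-0.42 to 0.09) for LXR DKO minus WT (limma adjusted p = 0.197 and 0.396). Macrophages also express Tspo, and the summed level of 10 macrophage markers was 388 to 545 RPKM in transgenic, 653 to 1188 in LXR DKO, against 542 to 1279 in WT libraries. Their part in the values of Tspo was not tested.

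Side-chain cleavage needs the cytochrome P450 encoded by Cyp11a1 and its electron carriers, ferredoxin (Fdx1) and ferredoxin reductase (Fdxr). Cyp11a1 (ENSMUSG00000032323, chromosome 9, 58006411 to 58027023, plus strand) measured 1608, 1463 and 1470.2 RPKM in transgenic, 1859.8, 1530.3 and 1635 in LXR DKO and 1603, 1683 and 1489 in WT libraries. The genotypes overlapped, and its coefficient of variation over all 9 libraries was 7.95%, the lowest of the 10 genes. The 95% intervals of its log2 fold change were -0.34 to 0.20 for transgenic minus WT, -0.41 to 0.13 for transgenic minus LXR DKO and -0.20 to 0.34 for LXR DKO minus WT.

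Fdx1 (ENSMUSG00000032051, chromosome 9, 51943306 to 51963556, minus strand) had 296, 235 and 217 RPKM in transgenic, 267, 249.7 and 269 in LXR DKO and 264, 318 and 212 in WT libraries. Fdxr (ENSMUSG00000018861, chromosome 11, 115268024 to 115277050, minus strand) had 127, 138 and 116 RPKM in transgenic, 167, 123 and 139 in LXR DKO and 149.8, 149 and 118 in WT libraries. Both overlapped between all genotypes. The furthest limit of their 95% intervals against WT was -0.44 for Fdx1 and -0.44 for Fdxr, both in transgenic minus WT. Fdx1 stood at 1.60 to 2.33 times the level of Fdxr per length in each of the 9 libraries.

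Hsd3b1 encodes the 3beta-hydroxysteroid dehydrogenase of mouse gonads and adrenal, which turns pregnenolone into progesterone (ENSMUSG00000027871, chromosome 3, 98852194 to 98859794, minus strand). It measured 1079.7, 1129.6 and 1018 RPKM in transgenic 1 to 3. LXR DKO 1 to 3 had 1611, 1223 and 1571 RPKM, against 1801, 2739 and 2064 RPKM in WT 1 to 3. The libraries fell into order by genotype with no overlap, transgenic lowest and WT highest. Hsd3b1 fell in transgenic relative to WT by 1.01 ± 0.18, to 1076 ± 55.7 RPKM in transgenic against 2201 ± 484 RPKM in WT libraries (SD, n = 3 each, limma adjusted p = 0.0113). The remaining comparisons did not pass. The log2 fold change was -0.44 ± 0.18 for transgenic minus LXR DKO (limma adjusted p = 0.576) and -0.57 ± 0.18 for LXR DKO minus WT (limma adjusted p = 0.0756). The transgenic minus WT call held in every omission of 1 library (-1.14 to -0.84, limma adjusted p up to 0.0491) and was lost with no filter on low genes (adjusted p = 0.0935).

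Hsd3b6 encodes the isoform known from mouse testis, placenta and adrenal (ENSMUSG00000027869, chromosome 3, 98805504 to 98814443, minus strand). It measured 13.7, 14.3 and 11.8 RPKM in transgenic, 19.1, 16.1 and 20.7 in LXR DKO and 21.5, 33.7 and 25.6 in WT libraries, again with no overlap between genotypes. It fell in transgenic relative to WT by 0.95 ± 0.16 (limma adjusted p = 0.0103). Transgenic minus LXR DKO (-0.46 ± 0.16, limma adjusted p = 0.501) and LXR DKO minus WT (-0.49 ± 0.16, limma adjusted p = 0.0917) did not pass.

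The level of Hsd3b6 stayed at a nearly fixed share of Hsd3b1. It was 1.15% to 1.27% in transgenic, 1.18% to 1.32% in LXR DKO, against 1.19% to 1.24% in WT libraries, so the genes gave no separate pattern across genotypes. How multiply mapped reads were counted is not given in the sources used here, and how many reads of Hsd3b6 came from the shared stretches printed above was not tested. The values of Hsd3b6 are therefore uncertain, and its calls and those of Hsd3b1 may share reads, although both genes enter the counts of genes given here. Hsd3b2, Hsd3b3, Hsd3b4 and Hsd3b5 were at most 0.366 RPKM in any library, and Hsd3b7 was listed at 0 in all 9.

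**Figure D2:**
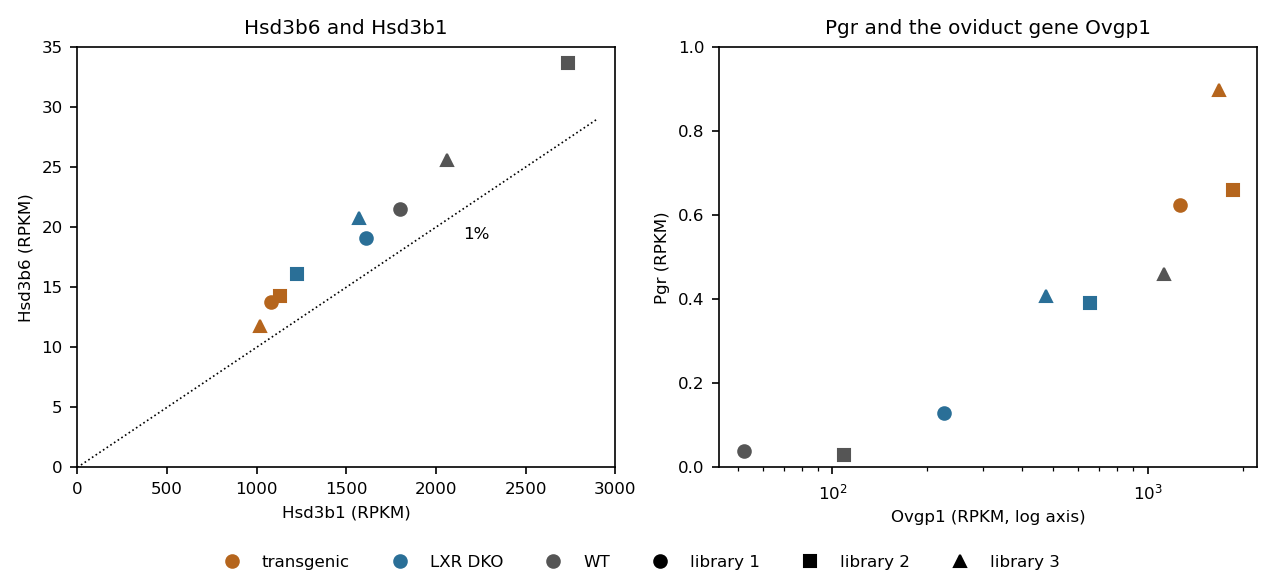
Left, Hsd3b6 against Hsd3b1 (RPKM), 1 point per library, with a dotted line at 1% of Hsd3b1; the 9 points run just above it, between 1.15% and 1.32%. Right, Pgr (RPKM) against the oviduct gene Ovgp1 (RPKM, log axis). The 2 libraries with the lowest Pgr, WT 1 and WT 2, also have the lowest Ovgp1, while Pgr is highest in transgenic 3 and Ovgp1 in transgenic 2.

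Akr1c18 encodes 20alpha-hydroxysteroid dehydrogenase, which turns progesterone into 20alpha-hydroxyprogesterone (ENSMUSG00000021214, chromosome 13, 4132615 to 4150654, minus strand). It measured 3340.4, 3648 and 3058 RPKM in transgenic 1 to 3. LXR DKO 1 to 3 had 3828, 4270.5 and 3866 RPKM, against 2534, 2763 and 2079 RPKM in WT 1 to 3. WT libraries were lowest and LXR DKO libraries highest, with the transgenic libraries between them and no overlap. Akr1c18 rose in LXR DKO relative to WT by 0.71 ± 0.15, 1.63-fold on the fitted scale (limma adjusted p = 0.0223). Neither transgenic minus WT (0.45 ± 0.15, limma adjusted p = 0.0863) nor transgenic minus LXR DKO (-0.25 ± 0.15, limma adjusted p = 0.736) passed.

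Omitting LXR DKO 2, LXR DKO 3 or WT 1 ended the Akr1c18 call (0.59 to 0.80 over all omissions, limma adjusted p up to 0.0778) as did omitting both WT 1 and LXR DKO 1 (0.76, adjusted p = 0.0701), no filter on low genes (adjusted p = 0.477) and a fit of only the 2 genotypes (0.0718). Transgenic minus WT passed with quantile normalization (0.62, adjusted p = 0.0370) and with voom on the reads worked back (0.45, adjusted p = 0.0413). Of the other Akr1c genes, Akr1c14, which encodes a 3alpha-hydroxysteroid dehydrogenase, measured 48.0 to 58.8 RPKM in transgenic, 40.8 to 72.2 in LXR DKO, against 53.2 to 95.2 in WT libraries. Akr1cl measured 621 to 752 RPKM in transgenic, 589 to 713 in LXR DKO, against 502 to 642 in WT libraries.

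Ratios within each library restate these differences side by side, and since Akr1c18 was already higher and Star and Hsd3b1 lower than in WT, their separation adds no evidence. Akr1c18 stood at 42.9 to 54.6 times the level of Star in transgenic, 50.4 to 77.3 times in LXR DKO and 19.2 to 22.6 times in WT libraries. Against Hsd3b1 it stood at 3.00 to 3.23 times in transgenic, 2.38 to 3.49 times in LXR DKO and 1.01 to 1.41 times in WT libraries. Transgenic and LXR DKO libraries overlapped in both ratios, and all lay above the WT libraries. The ratio of Cyp11a1 to Star likewise was 17.2 to 26.3 in transgenic, 20.5 to 37.6 in LXR DKO, against 12.6 to 14.3 in WT libraries. The ratios were not tested, and they compare mRNA levels per length, not enzyme activity.

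**Figure D3:**
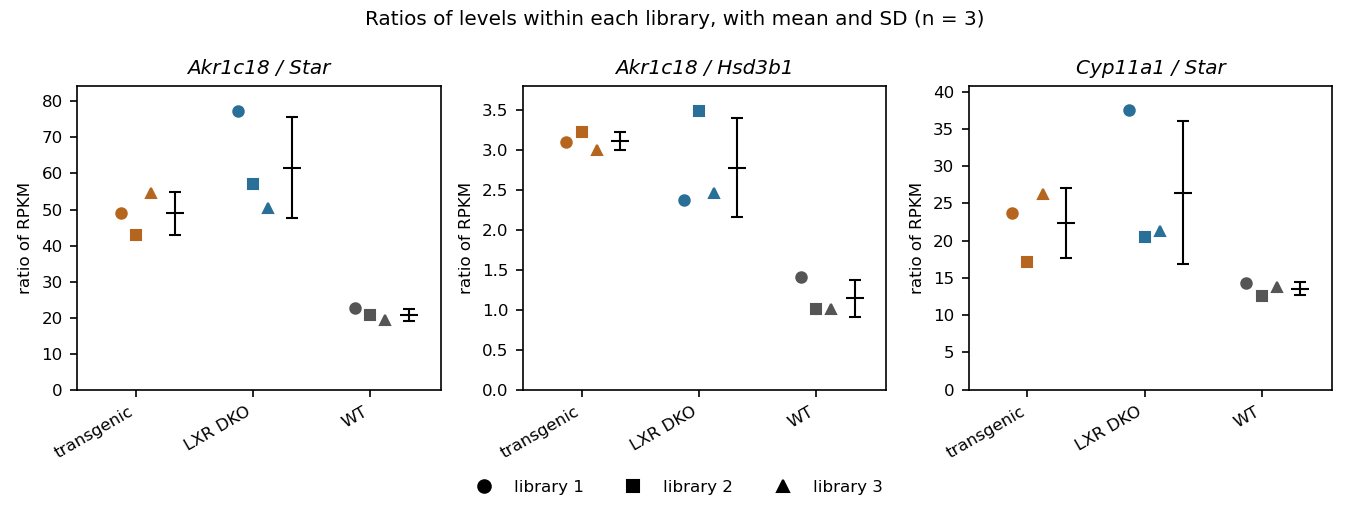
Ratios of RPKM within each library (vertical axes, from 0) of Akr1c18 to Star, Akr1c18 to Hsd3b1 and Cyp11a1 to Star; points are libraries and bars the mean and SD (n = 3). In all panels the transgenic and LXR DKO libraries lie above the 3 WT libraries.

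Pgr encodes the nuclear progesterone receptor, which mural granulosa cells are known to induce briefly after the ovulatory surge (ENSMUSG00000031870, chromosome 9, 8899833 to 8968611, plus strand). It was low everywhere, at 0.624, 0.659 and 0.897 RPKM in transgenic, 0.128, 0.392 and 0.407 in LXR DKO and 0.0399, 0.0284 and 0.460 in WT libraries. These values rest on 247, 175 and 260 reads in transgenic, 46, 112 and 120 in LXR DKO and 15, 9 and 185 in WT libraries. Transgenic libraries were highest, and WT 3 lay above all LXR DKO libraries. Pgr was under the filter for testing. With no filter its log2 fold change was 0.57 ± 0.16 for transgenic minus WT and 0.40 ± 0.16 for transgenic minus LXR DKO (limma adjusted p = 0.104 and 0.699).

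Oviduct epithelium is known to express Pgr, and the oviduct glycoprotein gene Ovgp1 measured 1266, 1857 and 1679 RPKM in transgenic, 226, 655 and 477 in LXR DKO and 52.2, 109 and 1125 in WT libraries. WT 3, the WT library with the highest Pgr, also had the highest Ovgp1 of that genotype. The orders differed in the other genotypes. Pgr was highest in transgenic 3 and Ovgp1 in transgenic 2, and Pgr was highest in LXR DKO 3 and Ovgp1 in LXR DKO 2. WT 3 was also the WT library with the highest summed red blood cell, theca and macrophage markers. All 11 oviduct markers reached 1 RPKM in every transgenic library, and 7 to 11 did in WT libraries. The part of oviduct RNA in the values of Pgr was not tested.

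Pgrmc1 encodes a heme-binding membrane protein linked to progestin responses of granulosa cells (ENSMUSG00000006373, chromosome X, 36598206 to 36606079, plus strand). It measured 179, 173 and 169 RPKM in transgenic, 272, 171 and 199 in LXR DKO and 187, 216 and 145 in WT libraries. The genotypes overlapped, and the highest value was that of LXR DKO 1. Its 95% interval was -0.48 to 0.37 for transgenic minus WT, -0.70 to 0.15 for transgenic minus LXR DKO and -0.21 to 0.64 for LXR DKO minus WT.

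In transgenic minus WT, 3 of the 9 genes tested fell and 0 rose, against 6.72% of all genes lower, 5.15% higher and 11.9% called in either direction. The libraries of 5 of the 9 did not overlap, against 35.7% of all genes. In transgenic minus LXR DKO, 0 of 9 were called by limma, and 0 by voom, against 0.116% of all genes (0.0548% higher, 0.0609% lower). Hsd3b1 and Hsd3b6 had an unadjusted p under 0.05 there (0.0359 and 0.0203), and the libraries of 3 of the 9 did not overlap, against 18.3% of all genes. In LXR DKO minus WT, 1 rose and 1 fell, against 10.6% of all genes (3.47% higher, 7.12% lower), and the libraries of 4 of the 9 did not overlap, against 28.9%. The median log2 fold change of the 9 genes was -0.12 in transgenic minus WT, -0.16 in transgenic minus LXR DKO and 0.0049 in LXR DKO minus WT. That of all genes tested was 0.015, 0.013 and 0.017 in these comparisons.

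**Figure D4:**
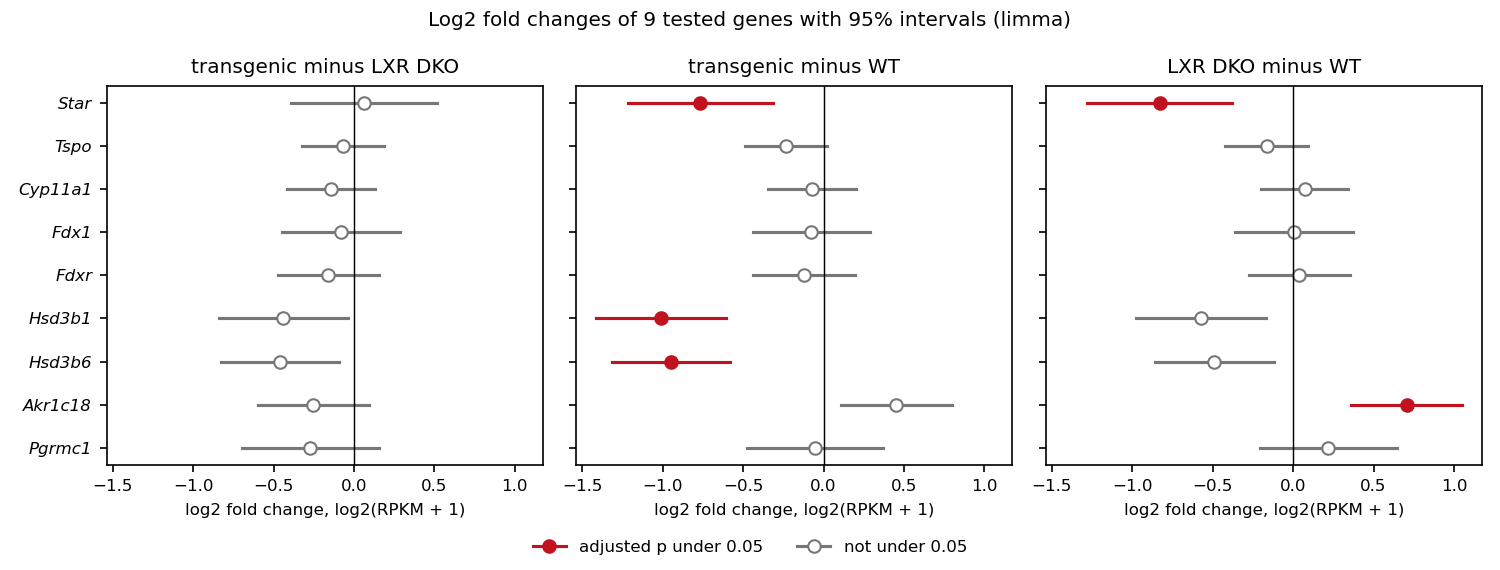
Log2 fold changes (horizontal axes, log2(RPKM + 1) scale) of the 9 tested genes with 95% intervals in the 3 comparisons; filled red points have a limma adjusted p under 0.05. No point is filled in transgenic minus LXR DKO, Star, Hsd3b1 and Hsd3b6 are filled in transgenic minus WT, and Star and Akr1c18 in LXR DKO minus WT.

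Genes that act around these steps were counted in the same way, list by list. The counts are to be read beside the share of all genes called. This was 11.9% in transgenic minus WT, 0.116% in transgenic minus LXR DKO and 10.6% in LXR DKO minus WT. The lists were not tested as sets. Of 15 genes of mitochondrial cholesterol delivery and side-chain cleavage, 5 of them described above, 1 rose and 1 fell in transgenic minus WT and in LXR DKO minus WT, and 0 passed in transgenic minus LXR DKO. Their median log2 fold change was -0.072 in transgenic minus WT, -0.036 in transgenic minus LXR DKO and 0.0049 in LXR DKO minus WT. Beside Star this was Vdac2, which encodes a channel of the outer mitochondrial membrane. It measured 46.1 ± 1.75 RPKM in transgenic, 43.8 ± 0.642 in LXR DKO and 35.97 ± 2.44 in WT libraries (SD, n = 3; limma adjusted p = 0.0203 and 0.0441 against WT), and 6 and 14 of 19 alternative settings ended these calls (adjusted p up to 0.0755 and 0.136).

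Of 10 further steroid enzyme genes tested, 1 fell in transgenic minus WT, 0 passed in transgenic minus LXR DKO, and 1 rose and 1 fell in LXR DKO minus WT, with medians of -0.13, 0.011 and -0.095. Hsd17b1, the estradiol-forming enzyme gene, fell against WT in both, with means of 41.4 ± 8.89 RPKM in transgenic, 34.5 ± 12.0 in LXR DKO and 84.7 ± 5.88 in WT libraries (limma adjusted p = 0.0229 and 0.0090). The transgenic call ended in 5 of 19 settings (adjusted p up to 0.0859). Hsd17b12, a gene of fatty acid elongation, rose in LXR DKO by 0.55 ± 0.12 (adjusted p = 0.0257), a call that 6 of 19 settings ended (up to 0.102).

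Of 8 further progestin-clearing and reductase genes tested, 1 rose in LXR DKO minus WT and 0 passed in the other comparisons, with medians of 0.29 in transgenic minus WT, -0.020 in transgenic minus LXR DKO and 0.24 in LXR DKO minus WT. This was Akr1b7, whose aldose reductase-like enzyme is known to detoxify the aldehyde left by side-chain cleavage and is not known for clearing progesterone. It measured 1.78 ± 0.234 RPKM in transgenic, 5.94 ± 1.33 in LXR DKO and 0.979 ± 0.589 in WT libraries, a rise in LXR DKO of 1.83 ± 0.23 (limma adjusted p = 0.00245). At this low level the size depends on the scale, and it was 2.61 with a pseudocount of 0.1 and 2.79 with voom. Transgenic minus LXR DKO gave -1.30 ± 0.23 and did not pass.

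Of 14 further progestin receptor genes and partners tested, 2 fell in LXR DKO minus WT and 0 passed in the comparisons of transgenic libraries, with medians of 0.10 in transgenic minus WT, 0.068 in transgenic minus LXR DKO and 0.018 in LXR DKO minus WT. They were Nenf and Cyb5d2, which encode proteins with a cytochrome b5-like domain as in Pgrmc1. Nenf measured 36.6 ± 0.870 RPKM in transgenic, 34.2 ± 5.96 in LXR DKO and 49.5 ± 3.60 in WT libraries (limma adjusted p = 0.0281 for LXR DKO minus WT). Cyb5d2 measured 2.42 ± 0.257 RPKM in transgenic, 2.17 ± 0.118 in LXR DKO and 3.33 ± 0.390 in WT libraries (adjusted p = 0.0352). These calls ended in 9 and 11 of 19 settings (adjusted p up to 0.0823 and 0.0977).

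Genes known to need PGR in ovulating granulosa cells of mice were read beside the low Pgr values. Of 9 tested, 1 rose and 1 fell in transgenic minus WT, 0 passed in transgenic minus LXR DKO, and 2 rose and 1 fell in LXR DKO minus WT, with medians of 0.16, -0.25 and 0.14. The protease gene Adamts1 measured 30.8 ± 3.23 RPKM in transgenic, 39.6 ± 9.57 in LXR DKO and 13.2 ± 1.91 in WT libraries (limma adjusted p = 0.0050 and 0.0015 against WT). The cathepsin L gene Ctsl rose by 0.56 ± 0.11 in LXR DKO (adjusted p = 0.0157; 1 of 19 settings ended the call, 0.0635). The coregulator gene Cited1 fell against WT by 0.80 ± 0.14 in transgenic and 0.81 ± 0.14 in LXR DKO libraries (limma adjusted p = 0.0127 and 0.0108). With voom these log2 fold changes of Cited1 were -1.29 in both, and with a pseudocount of 0.1 they were -1.21 in transgenic and -1.23 in LXR DKO libraries. The LXR DKO call of Cited1 ended without LXR DKO 3 (0.0505).

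Of 17 regulators of steroid enzyme genes tested, 1 rose and 1 fell in transgenic minus WT, 0 passed in transgenic minus LXR DKO, and 1 rose and 1 fell in LXR DKO minus WT, with medians of -0.044, -0.057 and -0.067. Ptgfr, the receptor gene for prostaglandin F, which induces Akr1c18 in the rodent corpus luteum, measured 6.06 ± 0.493 RPKM in transgenic, 9.58 ± 1.39 in LXR DKO and 2.69 ± 0.733 in WT libraries (limma adjusted p = 0.0091 and 0.0010 against WT). Prlr, the prolactin receptor gene, through which Akr1c18 is repressed in rodents, measured 6.95 ± 1.06 RPKM in transgenic, 9.48 ± 0.946 in LXR DKO and 12.9 ± 2.05 in WT libraries. It fell in transgenic minus WT by 0.80 ± 0.14 (adjusted p = 0.0118), and LXR DKO minus WT gave -0.40 ± 0.14 (adjusted p = 0.115). Gata6, a GATA factor gene of granulosa cells, measured 6.23 ± 0.418 RPKM in transgenic, 5.54 ± 0.185 in LXR DKO and 7.92 ± 0.715 in WT libraries, a fall in LXR DKO of 0.44 ± 0.092 (adjusted p = 0.0189; 6 of 19 settings ended the call, up to 0.0757).

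The patterns most like those of Star and Akr1c18 over the 9 libraries were looked up among 6515 genes with a mean of at least 10 RPKM, by Pearson's r of log2(RPKM + 1). Hspe1 (0.944), Rab18 (0.944) and Rbm39 (0.939) were among the 4 closest to Star. Ahnak (0.970), Tmem185b (0.965), Hsd17b12 (0.957) and Calu (0.954) came closest to Akr1c18. The points share libraries and genotype, so these values describe likeness in this set alone.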

How the data were processed

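The authors deposited 1 matrix of RPKM values for 54838 genes, 1 column per library, all of them used. Transgenic column names have 1 letter unlike the descriptions and were matched by TG and number. Per the submitters' processing notes, the build was mm10 and the tools, with no roles given, were HISAT2 2.1.0, cutadapt, DESeq2 1.2.8 and HTSeq 0.5.4p5. No source used here gives the strand setting, annotation, read length or treatment of multiply mapped reads. Coordinates are those of GENCODE M21 on GRCm38, the assembly of mm10. With GENCODE M21 exon lengths, all 9 values of 37146 of 37863 genes above 0 (98.1%) were whole reads to within 0.02 reads. No 2 libraries of a genotype agreed within sampling noise. Chi-square per degree of freedom was 18.0 to 22.5 between transgenic, 20.8 to 60.3 between LXR DKO and 49.6 to 149.7 between WT libraries, while the fit gives all genotypes 1 spread.

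Values were tested as log2(RPKM + 1), a pseudocount of 1 that understates the change of low genes. Genes with at least 1 RPKM in at least 3 libraries (16422) entered 1 model of all 9 libraries by genotype, run in R 4.3.3 with limma 3.58.1 and a mean-variance trend. The threshold was 0.05 after Benjamini-Hochberg adjustment across every tested gene. The fit was tested on simulated data. With gene-varying dispersion its share of false calls stayed within a set limit, which was looser than the threshold of 0.05. With 1 dispersion for all genes it called too many genes with few reads, so a fit without the trend was added after seeing the data. The simulation gave all genotypes the same spread, unlike these libraries, so it cannot show the error rate of the comparisons with WT. The 10 genes, the lists and the other alternatives were chosen with earlier results of these data known. The 10 genes were named in full. Of each list, up to 4 genes past the threshold in a comparison were named, those with the largest change. Correlations of deviations between same-numbered libraries ran from -0.293 to 0.672, so the numbers were not taken as pairs. One of the genes closest in pattern to Star is not reported here.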

Additional observations from a re-analysis of the deposited data

How the results depend on the processing

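Each of 27 values (9 genes, 3 comparisons) was recomputed under 19 alternatives. Of the 513 values, 464 kept direction and side of the threshold, 25 lost a call, 2 gained one, and 22 uncalled values changed sign; no called value did. The call of Hsd3b6 in transgenic minus WT held in all 19. None of these changed how reads were assigned to genes, so they cannot address the reads that Hsd3b6 may share with Hsd3b1. The cause of the losses was not tested. The count of the 10 genes called in LXR DKO minus WT, 2, was 0 with no filter, with only the 2 genotypes compared and without WT 1 and LXR DKO 1 together, 1 with quantile normalization, and 0 to 2 on leaving out 1 library. In transgenic minus WT, 3, it was 1 with no filter and 2 to 3 on leaving out 1 library, and in transgenic minus LXR DKO it was 0 throughout. Of all genes, 1739 were called in LXR DKO minus WT, 1032 with no filter, 902 with only the 2 genotypes, 1101 without WT 1 and LXR DKO 1 together, and 606 to 2082 on leaving out 1 library. In transgenic minus WT the count was 1949, 1096 with no filter, 1201 without that pair, and 641 to 3442 on leaving out 1 library, the last without WT 3. In transgenic minus LXR DKO it was 19, 31 with quantile normalization, 98 with only the 2 genotypes, 4 to 156 on leaving out 1 library (highest without WT 3), and 8 with the replicate block. The replicate block changed no call of the 10 genes and gave 1178 and 1513 calls against WT in LXR DKO and transgenic libraries.

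Values that changed sign lay near 0. In LXR DKO minus WT, Cyp11a1 was -0.0010, Fdx1 -0.0022 and Fdxr -0.023 without WT 1 and LXR DKO 1 together, and Fdx1 was -0.0013 with voom. Leaving out 1 library gave -0.0071 to 0.13 for Cyp11a1, -0.14 to 0.15 for Fdx1, with -0.0093 and -0.015 among them, and -0.080 to 0.14 for Fdxr, with -0.074 among them. In transgenic minus LXR DKO, Star was -0.14 and Tspo 0.054 without that pair, and leaving out 1 library gave -0.14 to 0.21 for Star, with -0.090 among them, -0.21 to 0.012 for Fdx1 and -0.15 to 0.054 for Tspo. In transgenic minus WT, quantile normalization gave 0.0038 for Cyp11a1, 0.061 for Fdx1 and 0.069 for Pgrmc1, and leaving out 1 library gave -0.22 to 0.066 for Fdx1, with 0.017 among them, and -0.21 to 0.077 for Pgrmc1. Scaling moved the median of all genes by less than 0.1. Depth limits Pgr, with 9 reads in WT 2.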
